A study of Homo sapiens with 12 samples.

Results

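The enzymes that write, copy and oxidise DNA methylation were examined in HEK293T cells carrying mutant EZH2. The set held 7 genes chosen by name, DNMT1, DNMT3A, DNMT3B, TET1, TET2, TET3 and UHRF1. Of 14438 genes in the count table, all 7 were present, and all 7 were among the 14263 genes tested. HEK293T is a human embryonic kidney cell line. Each of 4 lines was made by lentiviral infection and blasticidin selection and carried EZH2 WT, EZH2 Y641F, EZH2 A677G or EZH2 H689A/F667I, with 3 replicates per line. EZH2 Y641F and EZH2 A677G are the gain-of-function (GOF) mutants, and EZH2 H689A/F667I is the loss-of-function (LOF) mutant.

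All 4 lines, the EZH2 WT line included, received introduced EZH2 on top of their own gene, and no untreated or empty-vector RNA was compared here. The study's methods describe selection for monoclonal populations, so each line may stand for 1 clone, and a difference between clones cannot be told apart from an effect of the mutation. Nothing in the labels ties the replicates to separate infections, so p-values measure the spread between these samples. RNA abundance was analysed here, and not DNA methylation, protein or enzyme activity. The study also measured proteins in these lines by mass spectrometry. Its text places DNMT3A in the protein network around EZH2 for the LOF mutant, without a direction. Those protein data were not analysed here.

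DNA methylation in mammals is found mostly at CpG dinucleotides. DNMT3A and DNMT3B place new methyl groups, and DNMT1 copies the pattern onto the new strand after replication, guided by UHRF1, which binds hemimethylated CpG. TET1, TET2 and TET3 oxidise methylcytosine with 2-oxoglutarate as cosubstrate, and the oxidised bases are removed by excision repair or lost through replication. EZH2 is the catalytic subunit of PRC2, which methylates histone H3 at lysine 27, a mark that largely occupies different CpG islands from DNA methylation.

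The members lie on 5 chromosomes of GRCh38. DNMT1 (ENSG00000130816.17) lies at chr19:10133342-10231286 on the minus strand and UHRF1 (ENSG00000276043.5) at chr19:4903080-4962154 on the plus strand. DNMT3A (ENSG00000119772.19) lies at chr2:25227855-25342590 on the minus strand and DNMT3B (ENSG00000088305.19) at chr20:32762385-32809359 on the plus strand. TET1 (ENSG00000138336.9), TET2 (ENSG00000168769.14) and TET3 (ENSG00000187605.16) lie on the plus strand at chr10:68560337-68694487, chr4:105145875-105279816 and chr2:73984910-74108176. Exons of DNMT1 share 83 bases with S1PR2 on the same strand, and exons of TET3 share 390 bases with a long noncoding RNA on the same strand, so reads there could be assigned to either gene.

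Among the start-site windows read, only those of the maintenance pair held an E2F-type motif. RefSeq start-site windows on GRCh38.p14, from 250 bases upstream to 50 downstream, were found for 7 of 7 members, 18 windows in all. E2F-type motifs, spelled TTTCCCGC, TTTCGCGC, TTTGCCGC or TTTGGCGC and searched on both strands, were in 3.315% of all 35116 windows of this length. DNMT1 held 1 in its only window, from base -2 to base 6 around the start site, and UHRF1 held 1 in each of its first 2 windows, from -14 to -7 and from -160 to -153. No window of DNMT3A, DNMT3B, TET1, TET2 or TET3 held these letters. The only DNMT3B window starts 17467 bases inside the annotated gene, so its outermost annotated start was not searched for the motif. The DNMT1 and UHRF1 stretches are shown because they place the motif, in capitals, against the start site, which follows base 52 of each stretch. They are chr19:10194946-10195005 on the minus strand and chr19:4909449-4909508 on the plus strand.
DNMT1: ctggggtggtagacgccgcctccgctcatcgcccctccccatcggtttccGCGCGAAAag
UHRF1: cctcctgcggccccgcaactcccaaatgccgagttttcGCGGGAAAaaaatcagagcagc

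CpG content of the start-site windows varied widely among the members. The most upstream RefSeq window held 30 CpG in DNMT1, 36 in UHRF1, 18 in DNMT3A, 10 in TET1, 13 in TET2 and 45 in TET3, beside a median of 14 over all windows. The only DNMT3B window held 3 CpG. Its start site lies 17467 bases inside the annotated gene, that of the only DNMT1 window 36333 bases and that of the first UHRF1 window 6421 bases inside, so windows at the outermost annotated starts of these 3 genes were not read. Other windows of the same gene could differ from its first. The second TET2 window, 1001 bases inside the gene, held 35 CpG, and the second TET3 window 33. The other TET1 windows held 6 and 11 CpG, and the DNMT3A windows 18 to 46. The 100 bases before the most upstream start of each TET gene are shown, with CpG in capitals. They make the contrast between these first starts visible within 1 family. They are chr10:68560237-68560336, chr4:105145775-105145874 and chr2:73984810-73984909, all on the plus strand, and hold 5, 3 and 19 CpG.
TET1: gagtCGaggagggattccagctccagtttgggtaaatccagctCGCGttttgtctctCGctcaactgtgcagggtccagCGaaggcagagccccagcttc
TET2: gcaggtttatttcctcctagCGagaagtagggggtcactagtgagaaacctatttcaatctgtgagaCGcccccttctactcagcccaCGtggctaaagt
TET3: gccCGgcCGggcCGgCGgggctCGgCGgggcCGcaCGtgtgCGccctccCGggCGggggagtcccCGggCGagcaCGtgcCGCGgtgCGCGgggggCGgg

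Total counts per sample ranged from 32137700 to 44562413, and counts of a member in 1 sample from 606 for DNMT3A to 13993 for DNMT1. Values are CPM, which divide counts by library size and by the TMM factor, edgeR's scaling between libraries, here between 0.982 and 1.02. EZH2, the introduced gene, whose count holds introduced and endogenous transcript together, was at 157.3, 162.8 and 154.3 CPM in EZH2 WT and at 227.8, 208.7 and 216.9 CPM in EZH2 Y641F. It was at 174.0, 164.6 and 181.7 CPM in EZH2 A677G and at 207.9, 210.1 and 206.0 CPM in the LOF mutant. Against EZH2 WT it was higher by 0.46, 0.13 and 0.40 on the log2 scale in these 3 lines (adjusted p-values 1.57e-10, 0.0294 and 1.15e-07, edgeR's quasi-likelihood test), and its level and its sequence cannot be told apart. Of 8 marker genes of HEK293T, 7 were among the genes tested, at 2.87 to 271.8 CPM, and EPCAM, a marker of other epithelial cells, was at 0.393 to 1.06 CPM. The pairs of EZH2 Y641F replicates differed most, with a chi-square per gene of 10.3 to 14.8 beside 3.33 to 7.09 for pairs within the other lines.

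Per length of transcript, the maintenance pair stood far above the other members in every line. Over the 12 samples, UHRF1 was at 66.4 ± 2.71 and DNMT1 at 60.1 ± 1.78 CPM per kilobase of the MANE Select transcript (mean ± SD, n = 12). DNMT3B followed at 11.0 ± 0.795, TET1 at 6.22 ± 0.371, TET2 at 4.40 ± 0.191, TET3 at 3.50 ± 0.0922 and DNMT3A at 2.33 ± 0.236 CPM per kilobase. This order was the same in 12 of 12 samples. The values depended on the length used. With all annotated exons as length, UHRF1 was at 50.3, DNMT1 at 20.6, DNMT3B at 6.94, TET3 at 3.26 and TET2 at 2.56 CPM per kilobase, so the TET2 and TET3 order turned and DNMT1 moved away from UHRF1. On the MANE Select length, DNMT3B exceeded DNMT3A by 4.74-fold per kilobase, with a range over samples of 4.22 to 5.23, and UHRF1 and DNMT1 kept a ratio of 1.06 to 1.16.

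**Figure D1:**
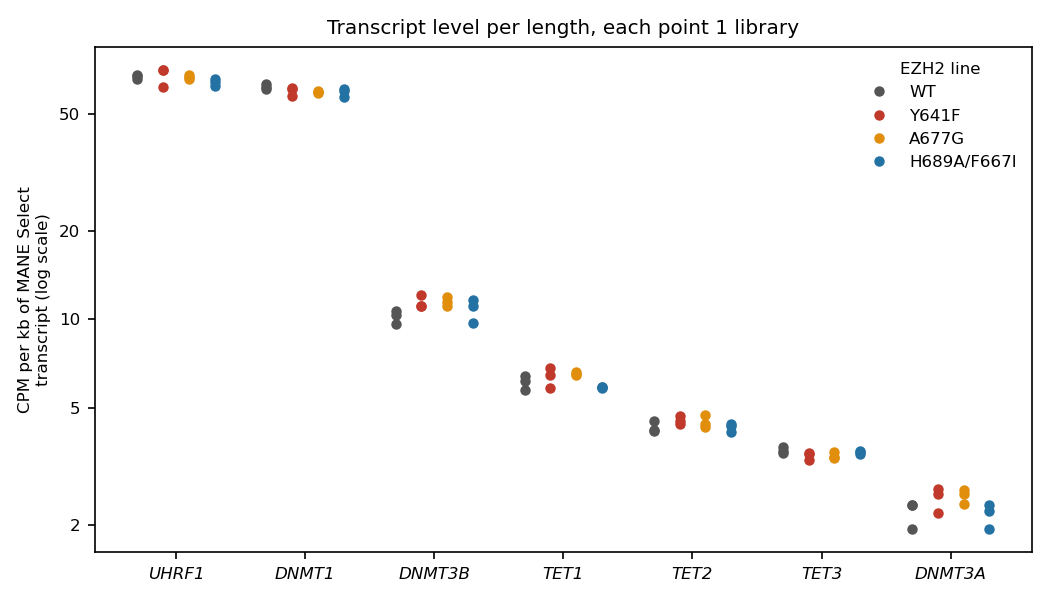
CPM per kilobase of MANE Select transcript (vertical log axis) for the 7 members, ordered by their mean, with 1 point per sample and 1 colour per EZH2 line. UHRF1 and DNMT1 sit near 60 to 70 CPM per kilobase and DNMT3A near 2, and the 4 lines lie close together for each gene.

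No member differed strongly between the lines. In these bulk samples, fewer cells with a transcript and less of it per cell cannot be told apart. Over the 5 comparisons of the 7 members, the 35 estimated differences ran from -0.070 to 0.20 on the log2 scale, and their 95% intervals from -0.19 to 0.35, so that the widest interval reached a 1.27-fold difference. For a single member, the highest of 12 samples exceeded the lowest by between 1.10-fold for TET3 and 1.37-fold for DNMT3A. The spread between replicates was a biological coefficient of variation of 3.20% for DNMT1 to 6.20% for DNMT3A, beside a median of 5.22% over all genes tested. In edgeR's quasi-likelihood F test of any difference among the 4 lines, 0 of 7 members passed a Benjamini-Hochberg adjusted p-value of 0.05, where 12.4% of all genes did. The lowest adjusted p-values in that test were 0.115 for DNMT3B, 0.116 for TET1 and 0.142 for DNMT3A. DESeq2 likewise called 0 members in that test.

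**Figure D2:**
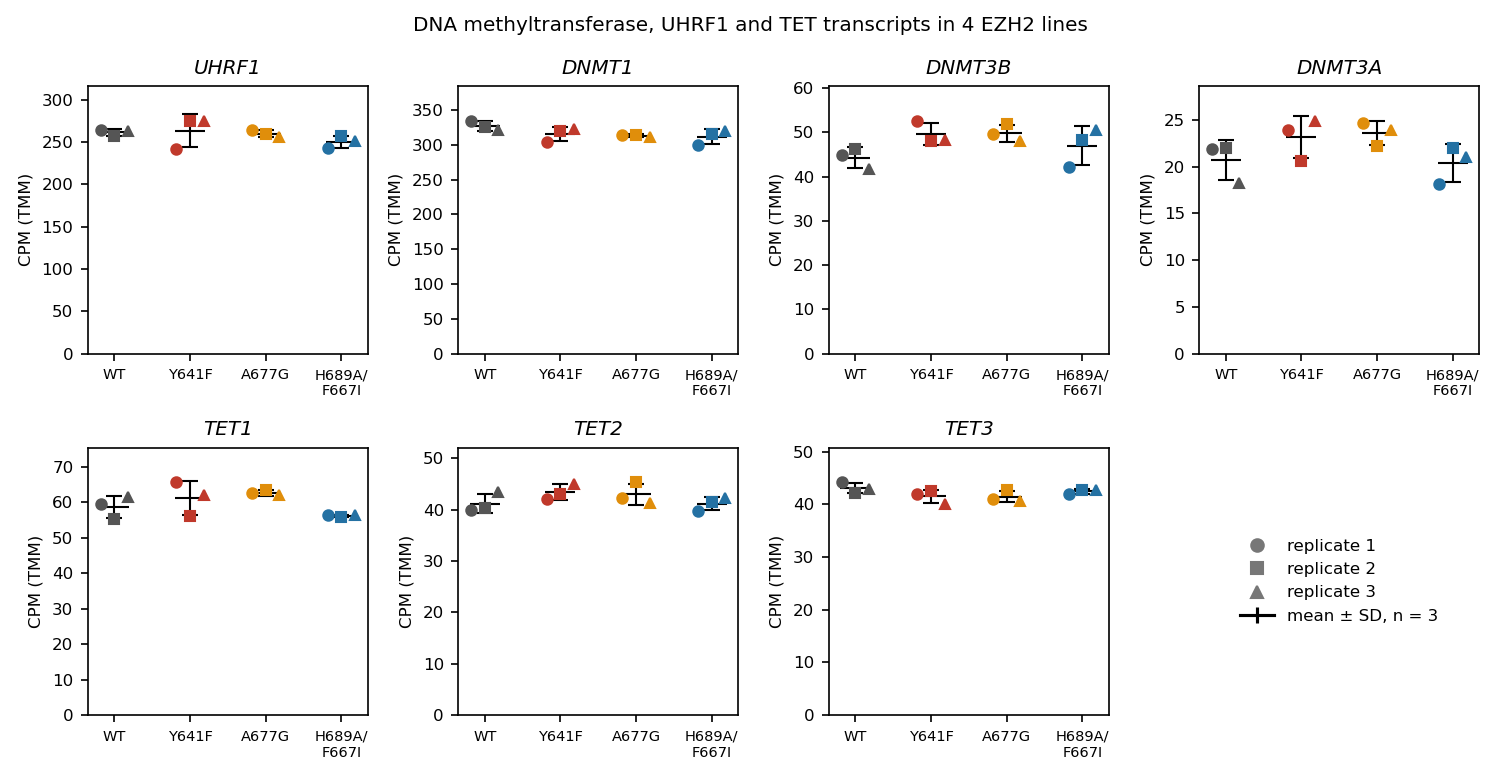
TMM-normalised CPM (vertical axes from 0) of each member in the 3 replicates of each EZH2 line, with 1 panel per gene. Points are samples, with marker shape giving the replicate number, and black bars give the mean ± SD (n = 3). UHRF1, TET2 and TET3 overlap with EZH2 WT in every line, while DNMT3B in the GOF lines (48.0 to 52.6 CPM) lies above EZH2 WT (41.6 to 46.3 CPM).

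DNMT1, the maintenance methyltransferase, was at 334.6, 326.3 and 321.3 CPM in EZH2 WT and at 300.0, 315.3 and 320.7 CPM in the LOF mutant. In EZH2 Y641F it was at 304.4, 320.0 and 322.3 CPM and in EZH2 A677G at 314.0, 314.9 and 310.9 CPM. All samples of EZH2 A677G and of the LOF mutant lay below all of EZH2 WT, while EZH2 Y641F overlapped with EZH2 WT. The differences from EZH2 WT were -0.053 ± 0.036 (SE) for EZH2 Y641F, -0.064 ± 0.036 for EZH2 A677G and -0.070 ± 0.036 for the LOF mutant on the log2 scale. None passed the test, with adjusted p-values of 0.455, 0.326 and 0.629 (edgeR's quasi-likelihood test, Benjamini-Hochberg). The 3 comparisons share the EZH2 WT samples, so a high EZH2 WT level would enter each of them.

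UHRF1, the reader of hemimethylated CpG that recruits DNMT1, was at 264.6, 256.8 and 263.1 CPM in EZH2 WT and at 242.8, 257.1 and 251.2 CPM in the LOF mutant. It was at 241.2, 274.5 and 275.0 CPM in EZH2 Y641F and at 264.0, 259.4 and 255.8 CPM in EZH2 A677G. The EZH2 Y641F line therefore held the lowest and the 2 highest samples of the series, the lowest being its replicate 1. Differences from EZH2 WT were 0.011 ± 0.041 for EZH2 Y641F, -0.0095 ± 0.041 for EZH2 A677G and -0.063 ± 0.041 for the LOF mutant (log2, SE), with adjusted p-values of 0.928, 0.935 and 0.744 in edgeR's quasi-likelihood test. Over the 12 samples, log2 CPM of UHRF1 and DNMT1 had a Pearson r of 0.661, a description over samples that share lines and depth.

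DNMT3B, one of the de novo methyltransferases, was at 45.0, 46.3 and 41.6 CPM in EZH2 WT. It was at 52.6, 48.0 and 48.3 CPM in EZH2 Y641F and at 49.6, 51.8 and 48.0 CPM in EZH2 A677G, so all GOF samples lay above all EZH2 WT samples. In the LOF mutant it was at 42.2, 48.2 and 50.6 CPM, a range that overlapped with each of the other lines. The difference from EZH2 WT on the log2 scale was 0.16 ± 0.058 (95% interval 0.046 to 0.28) for EZH2 Y641F and 0.17 ± 0.058 (0.051 to 0.29) for EZH2 A677G. Both missed the threshold in edgeR's quasi-likelihood test, with adjusted p-values of 0.0802 and 0.0653, and unadjusted ones of 0.00779 and 0.00624. The LOF mutant differed from EZH2 WT by 0.084 ± 0.059 on the log2 scale (adjusted p-value 0.767).

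The DNMT3B result stood near the threshold and depended on the fit. With each sample's trend with GC content removed, the adjusted p-value in edgeR's quasi-likelihood test was 0.0468 for EZH2 Y641F and 0.0444 for EZH2 A677G, and with only the compared lines in the fit it was 0.102 and 0.0201. Without replicate 1 of EZH2 Y641F, its highest sample, the difference from EZH2 WT in that line was 0.12 (adjusted p-value 0.270). Both comparisons share replicate 3 of EZH2 WT, its lowest sample. Without it the difference was 0.12 for EZH2 Y641F and 0.13 for EZH2 A677G (adjusted p-values 0.31 and 0.27, same test). The 20 tested genes that flank DNMT3B, 10 on each side, had median differences from EZH2 WT of 0.083 for EZH2 Y641F, 0.073 for EZH2 A677G and 0.079 for the LOF mutant. Per kilobase of MANE Select transcript, a length on which the size of this ratio depends, DNMT1 exceeded DNMT3B by 5.80-fold to 6.35-fold in EZH2 WT, by 4.76-fold to 5.49-fold in EZH2 Y641F, by 5.00-fold to 5.32-fold in EZH2 A677G and by 5.21-fold to 5.85-fold in the LOF mutant. This ratio did not overlap between either GOF line and EZH2 WT, a description with no test. Ratios of UHRF1 to DNMT1 and of TET1 to TET3 also lay apart from EZH2 WT for EZH2 A677G, but not for EZH2 Y641F. Ratios of DNMT3B to DNMT3A and of TET1 to TET2 overlapped with EZH2 WT for each GOF line. How often ratios of other gene pairs lie apart was not measured. Single genes did not overlap with EZH2 WT in 20.9% of cases for EZH2 Y641F and 27.2% for EZH2 A677G.

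DNMT3A, the other de novo methyltransferase and the member with the fewest counts, was at 21.9, 22.0 and 18.3 CPM in EZH2 WT and at 18.2, 22.0 and 21.0 CPM in the LOF mutant. It was at 23.9, 20.6 and 24.9 CPM in EZH2 Y641F and at 24.7, 22.2 and 23.9 CPM in EZH2 A677G. The EZH2 A677G samples all lay above EZH2 WT, and replicate 2 of EZH2 Y641F lay within its range. Differences from EZH2 WT on the log2 scale were 0.16 ± 0.082 for EZH2 Y641F, 0.18 ± 0.082 for EZH2 A677G and -0.026 ± 0.083 for the LOF mutant, with adjusted p-values of 0.291, 0.183 and 0.962 in edgeR's quasi-likelihood test. Without replicate 3 of EZH2 WT, its lowest sample, the difference was 0.078 for EZH2 Y641F and 0.10 for EZH2 A677G (adjusted p-values 0.701 and 0.578). Log2 CPM of DNMT3A and DNMT3B had a Pearson r of 0.724 over the 12 samples, the highest of any pair of members, and the lowest was -0.533 between DNMT3A and TET3.

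TET1, a dioxygenase with a CpG-binding CXXC domain, was at 59.5, 55.4 and 61.4 CPM in EZH2 WT and at 65.7, 56.2 and 62.1 CPM in EZH2 Y641F. It was at 62.6, 63.6 and 62.0 CPM in EZH2 A677G and at 56.5, 56.0 and 56.4 CPM in the LOF mutant. The LOF samples were close together and at the low end, EZH2 A677G lay above both EZH2 WT and the LOF mutant, and replicate 2 of EZH2 Y641F fell among the LOF samples. Differences from EZH2 WT were 0.063 ± 0.051 for EZH2 Y641F, 0.096 ± 0.051 for EZH2 A677G and -0.061 ± 0.052 for the LOF mutant (log2, SE), with adjusted p-values of 0.557, 0.294 and 0.810 in edgeR's quasi-likelihood test.

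TET2, which lacks a CXXC domain of its own, was at 39.9, 40.3 and 43.4 CPM in EZH2 WT and at 42.1, 43.1 and 45.1 CPM in EZH2 Y641F. It was at 42.4, 45.3 and 41.2 CPM in EZH2 A677G and at 39.7, 41.5 and 42.3 CPM in the LOF mutant, and all 4 ranges overlapped. Differences from EZH2 WT were 0.078 ± 0.054, 0.063 ± 0.054 and -0.00033 ± 0.054 on the log2 scale in EZH2 Y641F, EZH2 A677G and the LOF mutant. The adjusted p-values in edgeR's quasi-likelihood test were 0.470, 0.579 and 0.999.

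TET3, the third dioxygenase of the family, had the smallest range over the 12 samples. It was at 44.2, 42.2 and 43.0 CPM in EZH2 WT, at 42.1, 42.5 and 40.1 CPM in EZH2 Y641F, at 41.0, 42.7 and 40.7 CPM in EZH2 A677G and at 42.0, 42.8 and 42.7 CPM in the LOF mutant. The 4 ranges overlapped. Differences from EZH2 WT were -0.054 ± 0.051, -0.056 ± 0.051 and -0.022 ± 0.051 on the log2 scale, with adjusted p-values of 0.624, 0.605 and 0.944 in edgeR's quasi-likelihood test.

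Taking the members together, the comparisons with EZH2 WT gave no call. In edgeR's quasi-likelihood test 0 of 7 members passed in EZH2 Y641F, where 7.68% of all genes did, 0 of 7 in EZH2 A677G, where 8.55% did, and 0 of 7 in the LOF mutant, where 0.301% did. At an unadjusted p-value under 0.05 there was 1 member in EZH2 Y641F (DNMT3B), 2 in EZH2 A677G (DNMT3A and DNMT3B) and 0 in the LOF mutant, beside 19.2%, 20.4% and 8.30% of all genes. The edgeR exact test and DESeq2 also called 0 members in each of these comparisons. The members' median difference was 0.063 for EZH2 Y641F, 0.063 for EZH2 A677G and -0.026 for the LOF mutant on the log2 scale, where the median of all genes was 0.0025, 0.0045 and 0.0024. Groups did not overlap for 1 member in EZH2 Y641F (DNMT3B), for 4 in EZH2 A677G (DNMT1, DNMT3A, DNMT3B and TET1) and for 1 in the LOF mutant (DNMT1), while 20.9%, 27.2% and 15.0% of all genes did not overlap.

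The GOF mutants were next compared with each other. EZH2 Y641F differed from EZH2 A677G by -0.033 to 0.021 on the log2 scale over the 7 members, and the widest 95% interval reached 1.14-fold. Of the members, 0 of 7 passed in edgeR's quasi-likelihood test, where 0.0841% of all genes did, 0 passed at an unadjusted p-value under 0.05, and 0 passed in DESeq2 or the edgeR exact test. The 2 lines overlapped for all 7 members, where 10.2% of all genes did not overlap.

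The mean of both GOF mutants against the LOF mutant gave the only call, TET1. It was higher by 0.14 ± 0.044 on the log2 scale in the GOF lines (95% interval 0.051 to 0.23), a 1.10-fold difference, with an adjusted p-value of 0.0298 in edgeR's quasi-likelihood test. This was 1 of 7 members, in a comparison in which 12.6% of all genes passed, 3.81% as higher in the GOF lines. DESeq2 called the same gene. For TET1, 5 of 6 GOF samples lay above all LOF samples, and replicate 2 of EZH2 Y641F fell among the LOF samples. No member had groups that did not overlap in this comparison, where 13.9% of all genes did.

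The TET1 call depended on which samples were in the fit. It was lost in 6 of 12 fits that left out 1 sample, and the adjusted p-value over these 12 fits ran from 0.00383 to 0.105, with differences of 0.11 to 0.17 on the log2 scale. The fits without it left out replicate 1 or 2 of EZH2 A677G, replicate 1 of EZH2 Y641F, or any 1 of the 3 LOF replicates. The 12 fits include those without an EZH2 WT sample, a line outside this comparison, and all of these kept the call. Over all genes, calls in this comparison went from 1792 to 1203, 1328 and 1353 without LOF replicate 1, 2 or 3. They were 1544 and 1571 without replicate 1 or 2 of EZH2 A677G, and 2105 without replicate 1 of EZH2 Y641F. The part of the smaller sample number in the lost TET1 calls was not tested. Without replicate 1 of EZH2 Y641F, the highest TET1 sample, the difference was 0.11 and the adjusted p-value 0.0631. With upper-quartile factors in place of TMM the difference was 0.12 and the adjusted p-value 0.0679. The 20 tested genes that flank TET1 had a median of 0.012 in the same comparison, and 0 of them were called.

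The other members differed less clearly between the GOF and LOF lines. DNMT3A was higher in the GOF lines by 0.20 ± 0.071 on the log2 scale (95% interval 0.052 to 0.34, adjusted p-value 0.0666 in edgeR's quasi-likelihood test). Its adjusted p-value was 0.0491 with the GC trend removed, 0.0195 without replicate 2 of EZH2 Y641F and 0.0458 without replicate 2 of the LOF mutant. In every other alternative run for this comparison DNMT3A was not called. These included DESeq2, the GC trend removed with the replicate block, and each other sample left out. DNMT3B differed by 0.083 ± 0.050 (adjusted p-value 0.333), TET2 by 0.071 ± 0.047 (0.385) and UHRF1 by 0.063 ± 0.035 (0.279). TET3 differed by -0.034 ± 0.044 (0.710) and DNMT1 by 0.011 ± 0.031 (0.878). UHRF1 passed only when replicate 1 of EZH2 Y641F was left out, at 0.093 with an adjusted p-value of 0.0224. At an unadjusted p-value under 0.05 there were 2 members, DNMT3A and TET1, beside 23.8% of all genes.

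**Figure D3:**
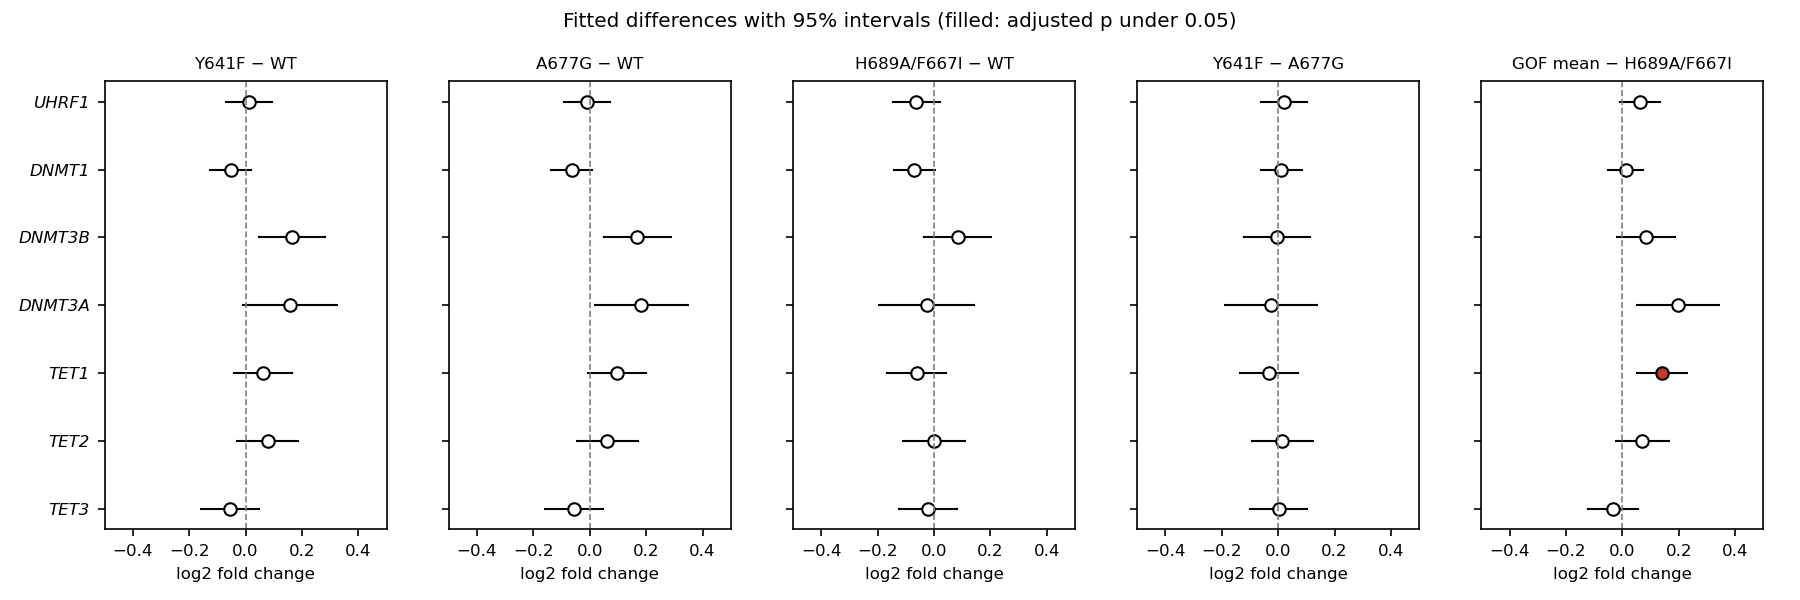
Fitted log2 fold change (horizontal axis) of each member in 5 comparisons, with lines for the 95% interval and a filled point where the Benjamini-Hochberg adjusted p-value in edgeR's quasi-likelihood test was under 0.05. TET1 in the mean of the GOF lines against the LOF mutant, at 0.14, is the only filled point, and no interval extends past 0.35 in either direction.

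Genes around the members on the chromosome were described in the same way, from 10 tested genes on each side. The 20 genes around DNMT3A had medians against EZH2 WT of 0.080 for EZH2 Y641F and 0.039 for EZH2 A677G, beside 0.16 and 0.18 for DNMT3A itself. Around DNMT1 the medians were -0.046 for EZH2 Y641F, -0.0052 for EZH2 A677G and -0.028 for the LOF mutant, beside its own -0.053, -0.064 and -0.070. Their part in the members' values was not tested.

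The genes whose log2 CPM followed a member most closely over the 12 samples, among 12039 whose log2 CPM averaged 1 or more, were listed as a description. They were SLX4 (Pearson r 0.953) and MGARP (0.928) for TET1, PIKFYVE (0.922) and REV3L (0.922) for TET2, and E4F1 (0.889) and PDPN (0.877) for TET3. For DNMT1 they were ACIN1 (0.924) and KLF5 (0.902), for UHRF1 USP7 (0.900) and SLC1A3 (0.896), for DNMT3A ZNF445 (0.906) and ZNF79 (0.892), and for DNMT3B RNF41 (0.921) and NBAS (0.919). USP7, the deubiquitinase that partners UHRF1 and DNMT1, was also in the list of methylation partners. None of the other members was among the closest genes of a member.

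The wider pathway was taken as 58 genes in 6 lists, namely CpG methylation partners, oxidised base excision, methyl-CpG readers, TET partners and cosubstrate enzymes, the S-adenosylmethionine (SAM) cycle, and H3K36 methyltransferases. Of these genes, 53 were tested. Those called in edgeR's quasi-likelihood test were 2 in EZH2 Y641F against EZH2 WT, 2 in EZH2 A677G, 1 in the LOF mutant, 0 between the GOF lines and 8 between the GOF lines and the LOF mutant, all as higher. That is 3.77%, 3.77%, 1.89%, 0 and 15.1% of those tested, against 7.68%, 8.55%, 0.301%, 0.0841% and 12.6% of all genes. Higher calls alone were 2.09%, 2.07% and 0.14% of all genes in the 3 comparisons with EZH2 WT and 3.81% between the GOF lines and the LOF mutant. The median difference of the 53 genes ran, over the 5 comparisons, from -0.029 to 0.025 on the log2 scale.

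IDH2, the mitochondrial enzyme that makes 2-oxoglutarate, the TET cosubstrate, was at 46.3 ± 1.29 CPM in EZH2 WT (mean ± SD, n = 3), 56.5 ± 3.60 for EZH2 Y641F, 55.6 ± 2.81 for EZH2 A677G and 50.1 ± 1.42 for the LOF mutant. In EZH2 Y641F it rose by 0.29 ± 0.052 on the log2 scale (adjusted p-value 2.07e-04 in edgeR's quasi-likelihood test), and in EZH2 A677G by 0.26 ± 0.052 (5.67e-04). ADK, the adenosine kinase that drains the by-product of SAM-dependent methylation, rose by 0.21 ± 0.054 in EZH2 Y641F (0.00957) and differed by 0.14 ± 0.055 in EZH2 A677G (0.114) and by 0.033 ± 0.055 in the LOF mutant (0.915). PCNA, the replication clamp that binds DNMT1, rose by 0.14 ± 0.041 in EZH2 A677G (0.0298) and by 0.18 ± 0.041 in the LOF mutant (0.0443). In EZH2 Y641F it differed from EZH2 WT by 0.12 ± 0.041 (0.0784).

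Between the GOF lines and the LOF mutant, IDH2 and ADK were called together with 5 genes that are named here after their values were seen. They included UHRF2 (0.16), the paralogue of UHRF1, and CDCA7 (0.14), a partner of the HELLS remodeller, with values as log2 differences. OGT (0.15), the O-GlcNAc transferase that binds TET proteins, and the H3K36 methyltransferases NSD2 (0.12) and NSD3 (0.13), listed in the table as WHSC1 and WHSC1L1, were also higher in the GOF lines. The adjusted p-values of these 7 genes in edgeR's quasi-likelihood test ran from 0.00349 to 0.0402. The NSD2 and NSD3 values are RNA levels and do not measure the histone mark. By mass spectrometry, the study reported H3K36me2 on histone H3.3 as lower in the GOF mutants and higher in the LOF mutant. Those histone data were not analysed here.

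**Figure D4:**
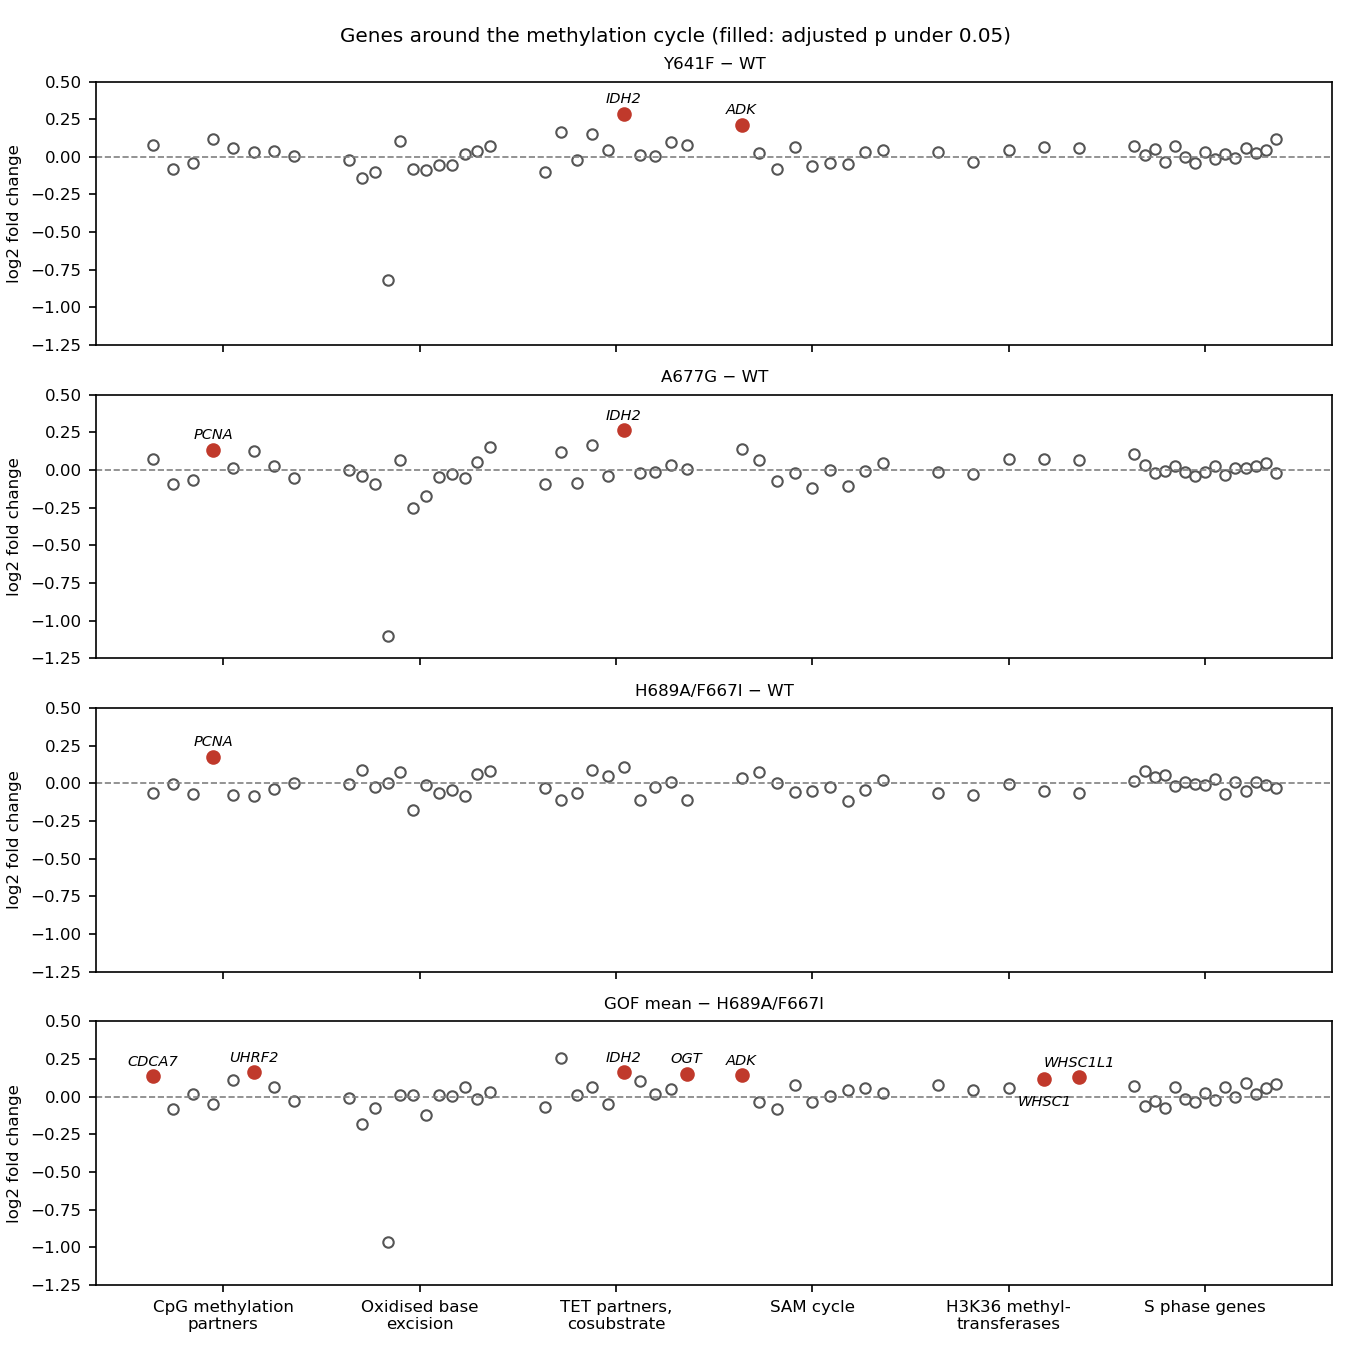
Log2 fold change (vertical axis) in 4 comparisons, with 1 point per gene. Points are the tested genes of 5 pathway lists, the methyl-CpG readers left out, and 15 genes listed as S phase genes. Filled and named points had a Benjamini-Hochberg adjusted p-value under 0.05 in edgeR's quasi-likelihood test. IDH2 is filled in both GOF lines, PCNA in EZH2 A677G and the LOF mutant, and the low open point in the excision list is GADD45G at under 1 CPM.

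The list of oxidised base excision, which also holds GADD45A, GADD45B and GADD45G, gave 0 calls of 12 tested genes in each of the 5 comparisons. The largest estimate in the list was for GADD45G, named after its values were seen, a stress-inducible gene linked to demethylation. It was at -0.82 ± 0.40 for EZH2 Y641F and -1.10 ± 0.42 for EZH2 A677G (log2, SE). GADD45G was at 0.147 to 0.662 CPM over the samples, and its adjusted p-values in edgeR's quasi-likelihood test were 0.252 and 0.0981. DNMT1 and UHRF1 are cell cycle genes, so 15 genes listed as S phase genes were set beside them. The list also holds the proliferation marker MKI67 and TOP2A, so it is not limited to S phase. Of the 15 listed genes, 0 were called in any of the 5 comparisons, and their summed level was 3894.8 to 3980.4 CPM over the samples. The count of 0 depends on the list, since PCNA, the replication clamp, was placed with the methylation partners and not among these 15. Against EZH2 WT, PCNA was called as higher for the LOF mutant (0.18, log2) and for EZH2 A677G (0.14), but not for EZH2 Y641F (0.12). The part of the 15 genes or of PCNA in the DNMT1 and UHRF1 values was not tested.

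Germline genes of a kind that DNA methylation can silence in somatic cells were listed beside the members. Only genes with transcript in the count table could be tested. MAGEA1, at 11.7 CPM in EZH2 WT, was not silent there, so these values do not read out silencing by the members. Of 25 genes, 7 were tested, and those called in edgeR's quasi-likelihood test were 0 in EZH2 Y641F against EZH2 WT, 2 in EZH2 A677G, 1 in the LOF mutant, 0 between the GOF lines and 2 between the GOF lines and the LOF mutant, beside 7.68%, 8.55%, 0.301%, 0.0841% and 12.6% of all genes. MAGEA1 rose by 0.32 ± 0.089 on the log2 scale in EZH2 A677G (adjusted p-value 0.0177) and by 0.54 ± 0.088 in the LOF mutant (9.95e-04), from 11.7 ± 0.265 CPM in EZH2 WT (mean ± SD, n = 3) to 14.6 ± 1.16 and 17.0 ± 1.09 CPM. In EZH2 Y641F it differed by 0.16 ± 0.089 (0.339). MAGEC2 rose by 0.97 ± 0.30 in EZH2 A677G (0.0360), from 0.848 to 1.67 CPM. Between the GOF lines and the LOF mutant, MAGEA1 was lower by -0.30 and MAGEB2, named after its values were seen, higher by 0.36 on the log2 scale, with adjusted p-values of 0.00397 and 0.0284 in edgeR's quasi-likelihood test. Against EZH2 WT, MAGEB2 differed by -0.37 ± 0.13 in EZH2 Y641F (0.0643), by 0.034 ± 0.12 in EZH2 A677G (0.920) and by -0.53 ± 0.13 in the LOF mutant (0.0624).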

How the data were processed

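RNA was sequenced from 12 samples, 3 per line, with the TruSeq Stranded mRNA kit. Per the labels and the study's methods, reads were trimmed with Trim Galore 0.6.5, aligned to GRCh38 with STAR 2.7.9a and quantified with Salmon 1.2.0 against Gencode 23. The authors deposited raw whole-number counts per gene symbol, and the step from Salmon to counts and the filter on genes are not given in the sources used here. The study compared lines with the exact test of edgeR 3.16.

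Here edgeR 4.0.16 was run in R 4.3.3. The 175 genes whose count was 0 throughout the EZH2 A677G line or the LOF line were left out, as in an earlier analysis of these data, and the remaining 14263 passed filterByExpr. TMM factors, a quasi-likelihood fit of all 12 samples with 1 coefficient per line, and two-sided tests were used, adjusted by the Benjamini-Hochberg method across the whole table at a threshold of 0.05. Standard errors came from the fit's weights. Log2 CPM used a prior count of 2. Lengths and positions came from GENCODE 44, where 13272 symbols matched by name and 809 by synonym of 14438, and GC content was known for 14081. Promoter sequences came from RefSeq. No table of protein sequences was used here.

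Alternatives were the edgeR exact test, DESeq2 1.42.0, upper-quartile factors, library totals, no filter, a minimum of 10 counts per sample, a fit of the compared lines alone, a replicate block, a GC trend removed with and without that block, and each sample left out. The fit was tested on simulated data. The members, gene lists and tests were chosen with earlier results of these data known. Members, EZH2, list genes called against EZH2 WT, and the 2 genes most like each member were named. Depth ranged from 32137700 to 44562413 counts, and the common biological coefficient of variation was 0.0471. The results of 2 genes of these lists are not reported here.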

Additional observations from a re-analysis of the deposited data

How the results depend on the processing

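The edgeR exact test takes 2 lines and was not run for the mean of the GOF lines or for any difference among the lines, and the other alternatives were run for each comparison they apply to. DNMT3B was the 1 member called in each GOF line against EZH2 WT with the GC trend removed, with or without the replicate block, and the 1 member called in EZH2 A677G with only the compared lines. Between the GOF lines and the LOF mutant, 2 members (DNMT3A and TET1) were called with the GC trend removed and 0 with upper-quartile factors. Leaving out 1 sample gave 0 to 1 members in EZH2 A677G (DNMT3B, without replicate 1 of EZH2 Y641F or of the LOF mutant), 0 to 2 between the GOF lines and the LOF mutant, and 0 to 2 in the test of any difference (UHRF1 without replicate 1 of EZH2 Y641F, DNMT3A and TET1 without its replicate 2). The cause was not tested.

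Estimates near 0 changed sign. With upper-quartile factors UHRF1 was at -0.0035 in EZH2 Y641F against EZH2 WT and DNMT1 at -0.0062 between the GOF lines and the LOF mutant. DNMT3B between the GOF lines was at 0.0013 with the GC trend removed, 0.0024 with that and the replicate block, 0.0096 with library totals and 0.00073 with upper-quartile factors. Leaving out 1 sample gave sign changes within these ranges between EZH2 Y641F and EZH2 A677G, from -0.0050 to 0.036 for DNMT1, -0.081 to 0.054 for DNMT3A, -0.049 to 0.024 for DNMT3B, -0.085 to 0.029 for TET1, -0.013 to 0.055 for TET2, -0.012 to 0.027 for TET3 and -0.011 to 0.081 for UHRF1. The same held for UHRF1 in EZH2 Y641F against EZH2 WT (-0.021 to 0.071), for DNMT3A (-0.11 to 0.049) and TET2 (-0.027 to 0.037) in the LOF mutant against EZH2 WT, and for DNMT1 between the GOF lines and the LOF mutant (-0.014 to 0.033).

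Of the members' estimates, 330 kept direction and side of the threshold under the other settings, while 6 changed sign, 6 gained a call and 1 lost it. With 1 sample left out, 385 kept both, 24 changed sign, 5 gained a call and 6 lost it. These counts include fits that left out a sample of a line outside the comparison, which by design moves the estimate little. Replicate numbers did not pair the samples. Same-numbered samples of different lines had correlated deviations of -0.104 to 0.132, 1 of 18 over 0.1, and the replicate block alone changed no count of members called (TET1 between the GOF lines and the LOF mutant at 0.14, adjusted p-value 0.0265 in edgeR's quasi-likelihood test).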
